A study of Mus musculus with 8 samples.

Results

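The 9 genes described here belong to the antiviral interferon system of the mouse and were measured in late morulae: the RNA sensors Ddx58 and Ifih1, the adaptor Mavs, the kinase Tbk1, and the transcription factors Irf1, Irf3, Irf7, Irf9 and Stat2. They were found by matching Ensembl identifiers in the deposited table to mouse symbols, and 9 of 9 matched, out of 19058 genes in all. The set was selected on the values of Irf3, chosen because they were lower in the double knockdown than in the control, so the values of the genes in that comparison, and the count of genes called in it, describe the selection and support nothing. All embryos were collected 78 h after fertilization, having received an injection of small interfering RNA (siRNA) as zygotes. The control received non-specific siRNA, the Rbbp4 knockdown siRNA against Rbbp4, the Rbbp7 knockdown siRNA against Rbbp7, and the double knockdown siRNA against both, with 2 libraries of polyadenylated RNA per group. The proteins RBBP4 and RBBP7 bind histones and resemble each other closely, and injected siRNA lowers a transcript without altering its gene. The sources used here give neither the strain nor the number of embryos per library, and no label says whether replicate libraries hold separate embryo pools. P-values therefore measure only the spread between these libraries, which may be technical.

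In somatic cells, viral RNA in the cytoplasm is bound by the helicases RIG-I (encoded by Ddx58) and MDA5 (encoded by Ifih1). Both signal through MAVS on the mitochondrial surface to the kinase TBK1, which phosphorylates IRF3 and IRF7, and these factors enter the nucleus and switch on type I interferon genes. Secreted interferon then acts through its receptor and Janus kinases on a complex that includes STAT2 and IRF9 and binds the interferon-stimulated response element of many antiviral genes. Early mouse embryos and embryonic stem cells are known for a weak interferon response.

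Because the set turns on Irf3, its promoter is shown beside that of Stat2, a member whose promoter holds a response element. Stat2 had the opposite direction in the double knockdown, but that is the selecting comparison. No link between motif and direction is read from this pair, and the other members with the element, Ddx58 and Ifih1, were too low to be tested. Each window runs from 250 bases before to 50 bases after the RefSeq start site on the + strand of GRCm38.p6, Irf3 at chr7:44997398-44997697 and Stat2 at chr10:128270248-128270547, written 5′ to 3′ with motif matches in capitals.
Irf3: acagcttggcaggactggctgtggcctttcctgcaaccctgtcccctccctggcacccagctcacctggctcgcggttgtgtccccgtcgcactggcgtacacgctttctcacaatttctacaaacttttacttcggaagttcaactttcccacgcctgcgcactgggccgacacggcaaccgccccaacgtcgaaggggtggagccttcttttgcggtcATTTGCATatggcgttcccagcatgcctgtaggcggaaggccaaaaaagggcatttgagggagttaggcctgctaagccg
Stat2: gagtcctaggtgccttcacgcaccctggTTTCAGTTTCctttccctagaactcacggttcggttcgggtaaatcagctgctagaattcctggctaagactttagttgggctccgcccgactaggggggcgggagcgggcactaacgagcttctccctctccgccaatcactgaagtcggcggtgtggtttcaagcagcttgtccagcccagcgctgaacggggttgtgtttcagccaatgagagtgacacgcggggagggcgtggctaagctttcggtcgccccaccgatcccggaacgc
The capitals in Irf3 mark an octamer, the motif of POU-domain factors (ATGCAAAT, searched on both strands), which lies on the opposite strand with its first printed base at −30 from the start site and which 1.74% of 32851 mouse promoter windows of the same length hold. Those in Stat2 mark an interferon-stimulated response element (GAAA, any 2 bases and GAAA, searched on both strands), which 3.44% of the windows hold. Among 11 windows of the 9 genes, this element was also found in Ifih1, as GAAACAGAAA, and in Ddx58, as TTTCGATTTC on the opposite strand, and in none of the windows of the 6 other genes. The octamer was found in Irf3 alone, and the cell cycle homology region TTTGAA in 0 of the 9 genes against 17.9% of all windows. The motifs were chosen after the sequences had been seen, no match overlapped another, and a match is a description of letters, not evidence of binding.

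The deposited values are normalized abundances per gene, with column totals of 11334107 to 12011829. Rbbp4 stood at 7.44% and 7.80% of its control mean in the Rbbp4 and double knockdowns, and Rbbp7 at 3.79% and 3.8% in the Rbbp7 and double knockdowns. Control replicate 1 stood apart from the other libraries, with 3937 genes listed at 0 against 2644 to 3237 and 6.21% mitochondrial signal against 4.26% to 5.53%. Double knockdown replicate 2 came next by both measures, with 3237 genes at 0 against 2644 to 3072 and 5.53% mitochondrial signal against 4.26% to 4.70% in the remaining 6. It held the highest of the 8 values of Mavs, Tbk1, Ddx58 and Irf7, and the part of these library differences in the results was not tested. The 6 trophectoderm and 5 pluripotency markers were above 10 in every library, and the 4 sperm markers in the table never exceeded 10. Also above 10 in every library were 3 oocyte markers and 1 marker each of cumulus cells, blood and immune cells, and fibroblasts. This count alone therefore does not mark the labelled stage. The summed trophectoderm markers were 15548 to 20593 in control libraries, 15419 to 17007 after Rbbp4 siRNA, 10291 to 11109 after Rbbp7 siRNA and 11614 to 12156 after both. The summed pluripotency markers were 22359 to 25465, 24377 to 25476, 29779 to 30329 and 21181 to 23425 in the same order, highest after Rbbp7 siRNA. Summed blood and immune markers were 216 to 403, 219.7 to 291, 141 to 271 and 365 to 366 in the same order, with 5 of 9 markers in the table and Cd68 the highest. Cd3e and Itgam were at 0 in control replicate 1 and Rbbp7 knockdown replicate 1. Itgam was also at 0 in control replicate 2, Rbbp4 knockdown replicate 2 and Rbbp7 knockdown replicate 2. The 5 oocyte markers summed to 71.2 to 140.1 over the 8 libraries, the 2 cumulus markers of 7 that were in the table to 20.9 to 52.6, and the 3 fibroblast markers of 6, chiefly Pdgfra, to 104 to 434. Not every marker followed its sum. The pluripotency sum was chiefly Pou5f1 and Nanog, while Sox2 had 136 and 375 in the control and 61.8 and 205 after Rbbp7 siRNA. The trophectoderm marker Tfap2c had 2913 and 3387 in the control and 3137 and 2959 after Rbbp7 siRNA. The part of these marker levels in the results below was not tested, and in such bulk libraries fewer cells of a type and less RNA per cell cannot be told apart.

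Irf3 (ENSMUSG00000003184, chromosome 7, 44997648 to 45002848, + strand, GRCm38) encodes the factor through which TBK1 starts interferon transcription. Its normalized abundance was 153 and 179 in control libraries, 129.7 and 69.8 after Rbbp4 siRNA, 86.7 and 129 after Rbbp7 siRNA and 38.1 and 44.7 after both siRNAs. Both double knockdown libraries lay below all 6 others, and all 4 single knockdown libraries lay below both control libraries. The low double knockdown values selected the gene, and the share of all tested genes with such an order was not counted. The group means were 166 ± 18.7 (SD, n = 2) for control libraries, 99.8 ± 42.3 after Rbbp4 siRNA, 108 ± 29.6 after Rbbp7 siRNA and 41.4 ± 4.68 after both. The knockdown means are 60.1%, 64.8% and 24.9% of the control mean. On the log2(value + 1) scale the double knockdown differed from the control by −1.98 ± 0.36 (standard error of the fit), the value that selected the gene. The single knockdowns, which share the control libraries with that value, had −0.79 ± 0.36 for Rbbp4 (95% interval −1.60 to 0.021, adjusted p = 0.850) and −0.64 ± 0.36 for Rbbp7 (−1.46 to 0.17, adjusted p = 0.613). Neither passed the limma test with Benjamini-Hochberg adjustment over all 12565 tested genes. The first was −1.23 without Rbbp4 knockdown replicate 1 and −0.35 without replicate 2, and the second −0.36 without Rbbp7 knockdown replicate 1 and −0.92 without replicate 2.

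The double knockdown libraries were also set against each single knockdown, although they are the ones that selected Irf3. The change was −1.19 ± 0.36 against the Rbbp4 knockdown (95% interval −2.0 to −0.38, limma adjusted p = 0.367) and −1.34 ± 0.36 against the Rbbp7 knockdown (−2.15 to −0.52, limma adjusted p = 0.140). The 2 single knockdowns, the only pair that shares no library with the selecting comparison, differed by −0.15 ± 0.36 (−0.96 to 0.66, limma adjusted p = 0.942). The range of the Rbbp7 knockdown, 86.7 to 129, lay inside that of the Rbbp4 knockdown, 69.8 to 129.7. The interaction, the change under both siRNAs minus the sum of the single changes, was −0.54 ± 0.51 (−1.69 to 0.60, limma adjusted p = 0.870). This contrast contains the double knockdown minus control difference on which Irf3 was selected, so its value follows in part from that choice. Its interval holds 0 and leaves room for a departure of either sign. Leaving out 1 library moved the interaction between −0.99 (without Rbbp4 knockdown replicate 2) and −0.10 (without replicate 1), and the change against the Rbbp4 knockdown between −1.63 and −0.75 (the same libraries in turn).

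**Figure D1:**
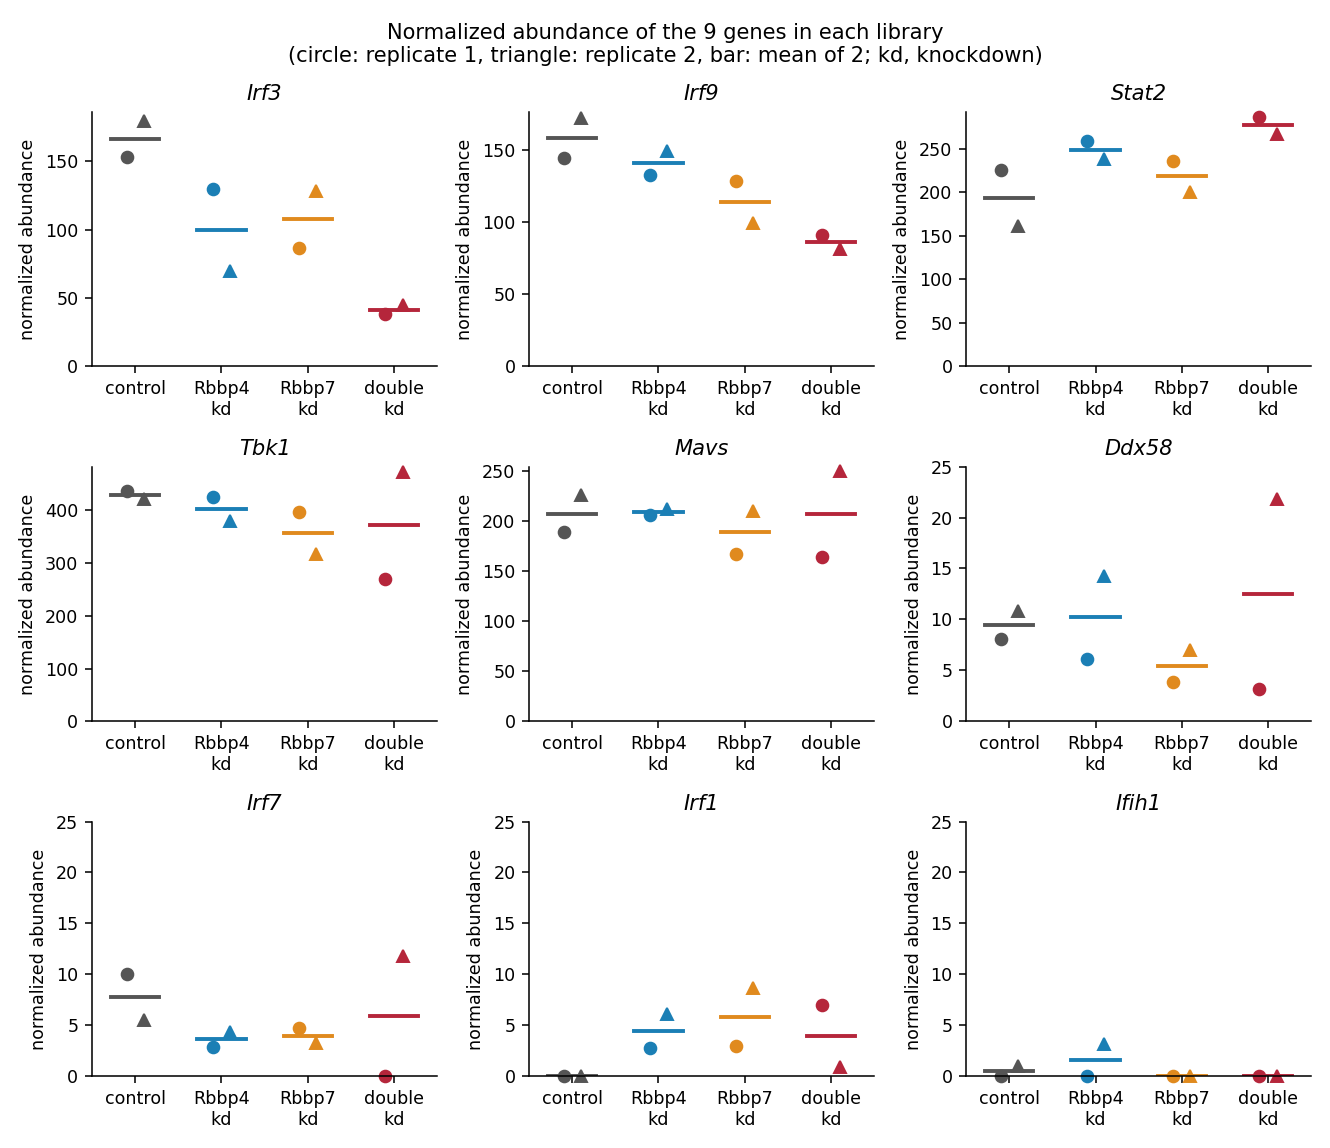
Normalized abundance (vertical axis, linear, from 0) of the 9 genes in each of 8 libraries, with circles for replicate 1, triangles for replicate 2 and bars for the mean of 2. Irf3 sits at 38.1 and 44.7 in the double knockdown against 69.8 to 179 in the other 6 libraries, while the 4 genes in the last panels never exceed 21.8.

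Irf9 and Stat2 encode partners that carry the interferon signal to DNA. Irf9 (ENSMUSG00000002325, chromosome 14, 55603571 to 55610030, + strand) had 145 and 172 in control libraries, 133 and 149 after Rbbp4 siRNA, 128 and 99.3 after Rbbp7 siRNA and 91.3 and 81.3 after both siRNAs. Its double knockdown libraries were the lowest of the 8, and its Rbbp7 knockdown libraries lay between those and the remaining 4. The double knockdown mean was 86.3 ± 7.08 against 158 ± 19.4 in the control, 54.5% of it, a log2 difference of −0.87 ± 0.25 given as a description. Stat2 (ENSMUSG00000040033, chromosome 10, 128270559 to 128292849, + strand) had 226 and 161 in control libraries, 259 and 238 after Rbbp4 siRNA, 236 and 201 after Rbbp7 siRNA and 286 and 267 after both siRNAs. Here the double knockdown libraries were the highest of the 8, and control replicate 2 was the lowest. Its means were 276 ± 13.6 in the double knockdown and 193 ± 45.3 in the control, a log2 difference of 0.53 ± 0.22, again with no test. For Irf9 and Stat2 alike, the share of all tested genes with such orders of libraries was not counted.

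Against the control, Irf9 had −0.16 ± 0.25 in the Rbbp4 knockdown (limma adjusted p = 0.964) and −0.48 ± 0.25 in the Rbbp7 knockdown (limma adjusted p = 0.597). Stat2 had 0.38 ± 0.22 (limma adjusted p = 0.884) and 0.19 ± 0.22 (limma adjusted p = 0.822). Between the single knockdowns Irf9 differed by 0.32 ± 0.25 (95% interval −0.26 to 0.89, limma adjusted p = 0.776) and Stat2 by 0.19 ± 0.22 (−0.30 to 0.68, limma adjusted p = 0.861). Against the Rbbp4 knockdown, the double knockdown had −0.70 ± 0.25 for Irf9 (limma adjusted p = 0.447) and 0.15 ± 0.22 for Stat2 (limma adjusted p = 0.869), and against the Rbbp7 knockdown −0.39 ± 0.25 and 0.34 ± 0.22 (limma adjusted p = 0.532 and 0.511).

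Neither gene of the relay upstream of Irf3 passed the limma test in any of the 6 comparisons other than the selecting one. Mavs (ENSMUSG00000037523, chromosome 2, 131234063 to 131248025, + strand), the mitochondrial adaptor of both sensors, had 189 and 226 in control libraries, 207 and 212 after Rbbp4 siRNA, 167 and 210.0 after Rbbp7 siRNA and 164 and 250.1 after both siRNAs. The double knockdown libraries held both the lowest and the highest of the 8 values. Tbk1 (ENSMUSG00000020115, chromosome 10, 121546455 to 121586787, − strand), the kinase of IRF3, had 437 and 420.1 in control libraries, 424 and 379 after Rbbp4 siRNA, 397 and 317 after Rbbp7 siRNA and 270.1 and 472 after both siRNAs. Again the 2 double knockdown libraries were the lowest and the highest of the 8, so the group mean of 371 ± 143 says little about a change. The double knockdown minus control difference was −0.025 ± 0.25 for Mavs and −0.26 ± 0.25 for Tbk1, as a description. Without double knockdown replicate 2 these were −0.33 and −0.66, and without replicate 1 they were 0.28 and 0.14.

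In the single knockdowns, Mavs had 0.021 ± 0.25 for Rbbp4 (95% interval −0.55 to 0.59, limma adjusted p = 0.997) and −0.14 ± 0.25 for Rbbp7 (−0.71 to 0.43, limma adjusted p = 0.902). Tbk1 had −0.094 ± 0.25 (−0.66 to 0.48, limma adjusted p = 0.986) and −0.27 ± 0.25 (−0.84 to 0.30, limma adjusted p = 0.772). Between the single knockdowns the differences were 0.16 ± 0.25 for Mavs and 0.18 ± 0.25 for Tbk1 (limma adjusted p = 0.904 and 0.889). The double knockdown had −0.046 ± 0.25 for Mavs and −0.17 ± 0.25 for Tbk1 against the Rbbp4 knockdown (limma adjusted p = 0.973 and 0.878), and 0.11 ± 0.25 and 0.0098 ± 0.25 against the Rbbp7 knockdown (limma adjusted p = 0.880 and 0.991). The interaction was 0.093 ± 0.36 for Mavs, 0.10 ± 0.36 for Tbk1, −0.22 ± 0.36 for Irf9 and −0.033 ± 0.31 for Stat2, with limma adjusted p of 0.978, 0.974, 0.935 and 0.991. The intervals of Mavs and Tbk1 leave room for changes of either sign, so equal levels are not shown.

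The 4 remaining genes had a mean below 10 over the 8 libraries and were not tested. The sensor Ddx58 (ENSMUSG00000040296, chromosome 4, 40203773 to 40239828, − strand) had 8.04 and 10.8 in control libraries, 6.11 and 14.3 after Rbbp4 siRNA, 3.87 and 7.02 after Rbbp7 siRNA and 3.21 and 21.8 after both siRNAs. Its double knockdown libraries were the lowest and the highest of the 8. Ifih1 (ENSMUSG00000026896, chromosome 2, 62595798 to 62646255, − strand), the other sensor, was listed at 0 in 6 libraries, with 1.0 in control replicate 2 and 3.14 in Rbbp4 knockdown replicate 2.

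Irf7 (ENSMUSG00000025498, chromosome 7, 141262706 to 141266481, − strand), which amplifies interferon production in cells that have already responded, had 9.99 and 5.48 in control libraries, 2.86 and 4.37 after Rbbp4 siRNA, 4.69 and 3.26 after Rbbp7 siRNA and 0 and 11.8 after both siRNAs. The 4 single knockdown libraries lay below both control libraries, and those of the double knockdown spanned all the others. The share of all genes with such an order was not counted. Irf1 (ENSMUSG00000018899, chromosome 11, 53770014 to 53778374, + strand), known as a target of interferon gamma signalling, was listed at 0 in both control libraries. It had 2.73 and 6.15 after Rbbp4 siRNA, 2.92 and 8.69 after Rbbp7 siRNA and 7.04 and 0.914 after both. At such levels no fold is given.

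Of the 5 tested genes, 0 passed in the Rbbp4 knockdown against the control, where 0.0239% of all tested genes passed, and 0 in the Rbbp7 knockdown, where 0.0239% passed. In the selecting comparison, double knockdown against control, 1 of the 5, Irf3, was among the called genes, which were 1.15% of all tested genes. That count is part of how the set was chosen, and nothing is read from it. The double knockdown against the Rbbp4 knockdown gave 0 of 5 (0.0159% of all tested genes), and against the Rbbp7 knockdown 0 of 5 (0.358%). The single knockdowns against each other gave 0 of 5 (0.0796%) and the interaction 0 of 5 (0.00796%). An unadjusted limma p below 0.05 was reached by 0 of the 5 genes in each single knockdown against the control, in the single knockdowns against each other and in the interaction, where 5.86% to 9.55% of all tested genes reached it. It was reached by 2 genes, Irf3 and Irf9, in the double against the Rbbp4 knockdown, beside 9.57% of all tested genes, and by 1, Irf3, in the double against the Rbbp7 knockdown, beside 15% (1879 genes). Both comparisons use the double knockdown libraries on which Irf3 was selected, so its part in these counts is a description. In the selecting comparison Irf3 was no longer among the called genes when any 1 of the 8 libraries was left out, with the change between −2.09 and −1.87, or under 4 of 9 other alternatives.

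**Figure D2:**
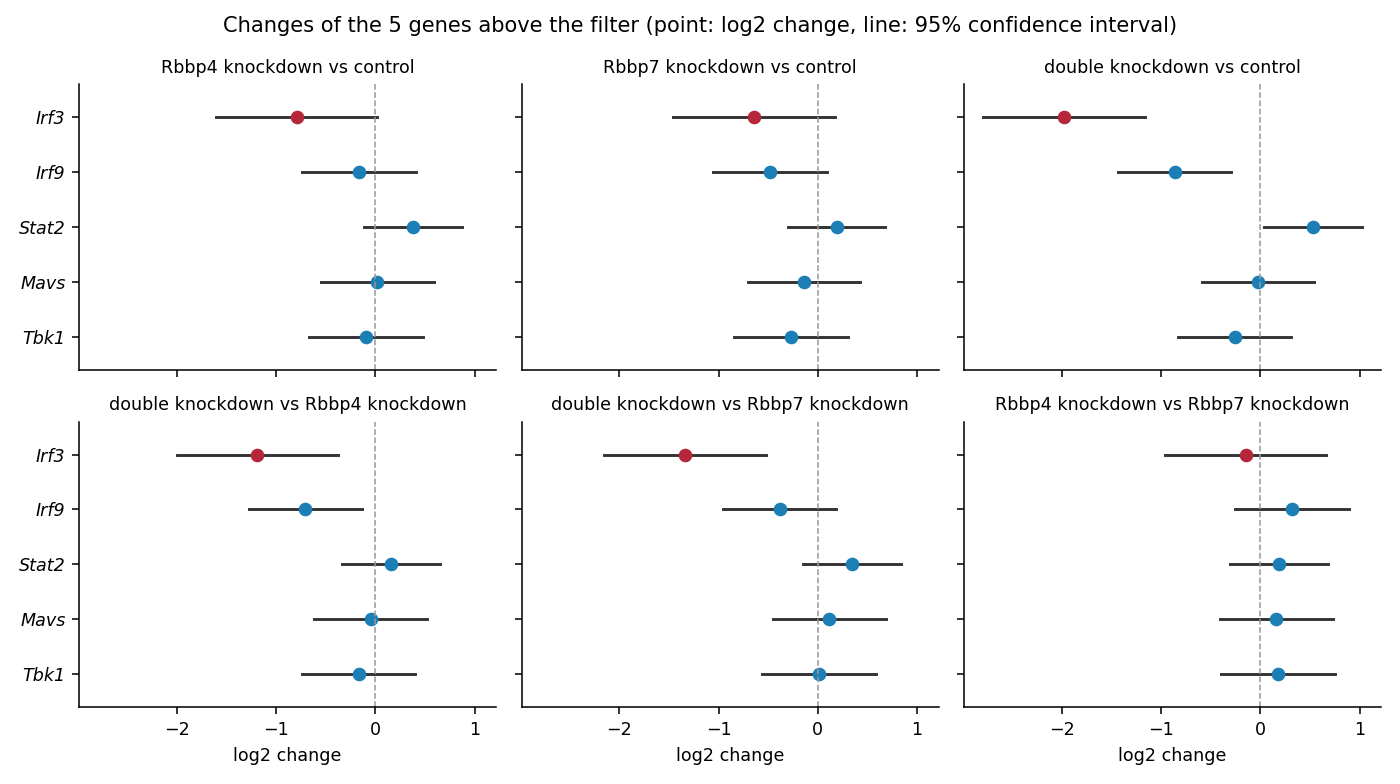
Log2 change (horizontal axis, on the log2(value + 1) scale) of the 5 tested genes in 6 comparisons, with points for the estimate and lines for the 95% interval of the fit. The intervals of Mavs and Tbk1 span 0 in every panel, and the double knockdown minus control interval of Irf3, which selected the set, runs from −2.79 to −1.17.

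Levels of different genes were compared per kilobase of annotated exonic sequence. In the control the order was Tbk1 (109.5 per kb), Mavs (62.0), Irf3 (48.3), Stat2 (32.6), Irf9 (29.4), Irf7 (2.05), Ddx58 (1.34), Ifih1 (0.061) and Irf1 (0). Tbk1, Mavs and Irf3 did not overlap their neighbours in this order, whereas Stat2 (27.2 to 38.1 per kb) overlapped Irf9 (26.9 to 32.0) and Irf7 (1.45 to 2.65) overlapped Ddx58 (1.14 to 1.54). Among the genes of the table with a length, Tbk1 stood at percentile 75.4 by this measure, Irf3 at 63.5, Irf9 at 57.1, Ddx58 at 24.8 and Ifih1 at 11.3. In the double knockdown the order of the tested genes was Tbk1 (94.9 per kb), Mavs (62.0), Stat2 (46.6), Irf9 (16.0) and Irf3 (12.0), and the ranges of Irf9 (15.1 to 17) and Irf3 (11.1 to 13.0) did not overlap. In both single knockdowns Tbk1, Mavs and Stat2 were the 3 highest by mean, with Stat2 at 41.9 per kb after Rbbp4 and 36.8 per kb after Rbbp7 siRNA. After Rbbp7 siRNA the ranges of Stat2 (33.8 to 39.8 per kb) and Irf3 (25.2 to 37.4) overlapped. After Rbbp4 siRNA those of Stat2 (40.2 to 43.6) and Irf3 (20.3 to 37.7) did not. The adaptor, the kinase, Irf3, Stat2 and Irf9 were therefore above the middle of the table, and both sensors were in its lower part.

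Irf3 shares 1065 bases of its gene span with Bcl2l12, a gene on the opposite strand, and 88 bases, 2.56% of its exonic length, are exonic in both. The printed promoter window lies inside the annotated span of Bcl2l12. The sources used here do not say whether strand was used in counting, so reads in the shared bases cannot be assigned. Bcl2l12 had 41.7 and 54.1 in the control and 30.5 and 41.9 in the double knockdown, a log2 change of −0.40 ± 0.39 (limma adjusted p = 0.637). Its 2 groups overlap by a small margin, and it was lower than Irf3 in each control library. The other neighbours did not pass in any of the 7 comparisons either. Cpt1c, a carnitine palmitoyltransferase of the brain, had 52.2 and 38.1 in the control and 136 and 109 in the double knockdown (1.43 ± 0.34, limma adjusted p = 0.0860), opposite in sign to Irf3. Scaf1 (−0.072 ± 0.43), the small GTPase gene Rras (0.38 ± 0.42) and Prr12 (−0.22 ± 0.17) had limma adjusted p of 0.956, 0.686 and 0.557, and the sixth neighbour, Prmt1, was not analysed here. Short overlaps were also annotated for Irf9 with Rnf31 on the same strand (123 bases), Irf7 with Phrf1 (45 bases) and Irf1 with Gm17334 (135 exonic bases). No annotated transcript of another gene held at least 300 bases at 95% identity to any of the 9 genes.

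**Figure D3:**
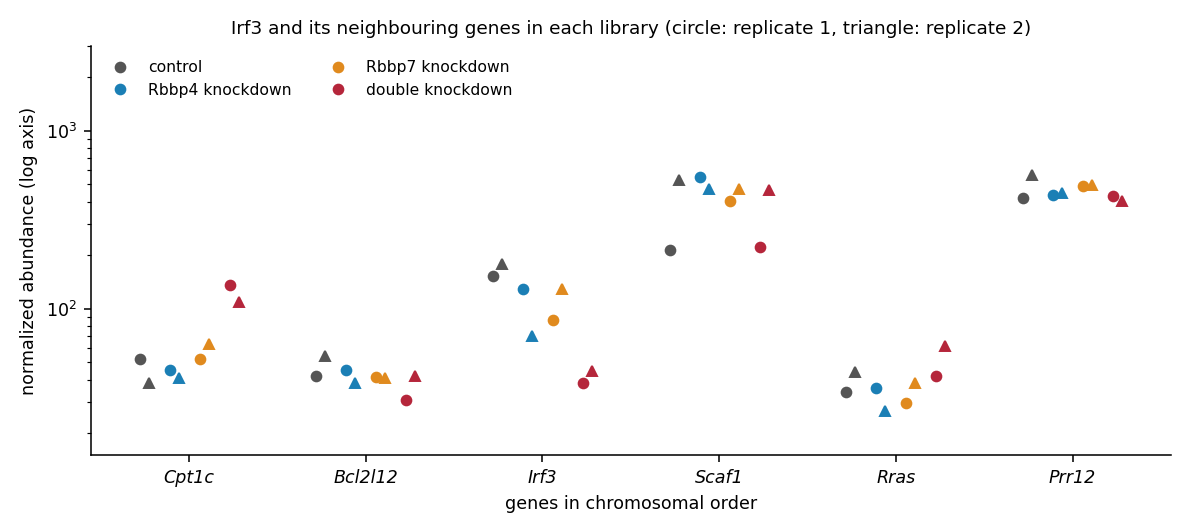
Normalized abundance (vertical axis, log scale) of Irf3 and 5 neighbouring genes in chromosomal order, with circles for replicate 1 and triangles for replicate 2 of each group. Irf3 is lowest in the double knockdown (38.1 and 44.7), Cpt1c is highest there (136 and 109), and for Bcl2l12, Scaf1, Rras and Prr12 at least 1 double knockdown point lies within the range of the other groups.

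Across the 8 libraries, the tested genes whose log2 values followed Irf3 most closely by Pearson correlation were the lipid transfer gene Osbpl8 (r = 0.989), the ergosterol biosynthesis homologue Erg28 (0.982), the pantothenate kinase family gene Pank4 (0.978), the G-CSF receptor gene Csf3r (0.972) and the vesicle tether subunit Trappc1 (0.971). Osbpl8 had 2125 and 2198 in control libraries, 2104 and 1688 after Rbbp4 siRNA, 1721 and 1967 after Rbbp7 siRNA and 1414 and 1418 after both siRNAs. Osbpl8 showed the same order of libraries within each group as Irf3, over a much narrower range. It was taken as the highest correlation among 12565 tested genes, so a like order follows in part from the choice. Within the set, Irf3 correlated with Irf9 at 0.72, with Stat2 at −0.77, with Tbk1 at 0.35 and with Mavs at 0.15. These are descriptions over 8 libraries that share 4 treatments, and the choice of Irf3 for its low double knockdown values shapes them.

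The wider system was described with 7 lists naming 203 other genes. The table held 175 of these, and 133 were tested. None of these lists contains any of the 9 genes. In the double knockdown against the control 0 of the 133 passed, beside 1.15% of all tested genes, and 0 passed in each single knockdown against the control, between the single knockdowns, in the double against the Rbbp4 knockdown or in the interaction. In the double against the Rbbp7 knockdown 1 rose, Lgals9, and 1 fell, Jun, beside 0.358% of all tested genes. The medians below are of log2 changes in the double knockdown against the control, where the median of all tested genes was −0.00056 and 49.9% were positive. An unadjusted limma p below 0.05 was reached there by 2176 of the 12565 tested genes, 17.3%, and by 17 of the 133, 12.8%. The counts of such genes given for each list below stand beside that share.

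**Figure D4:**
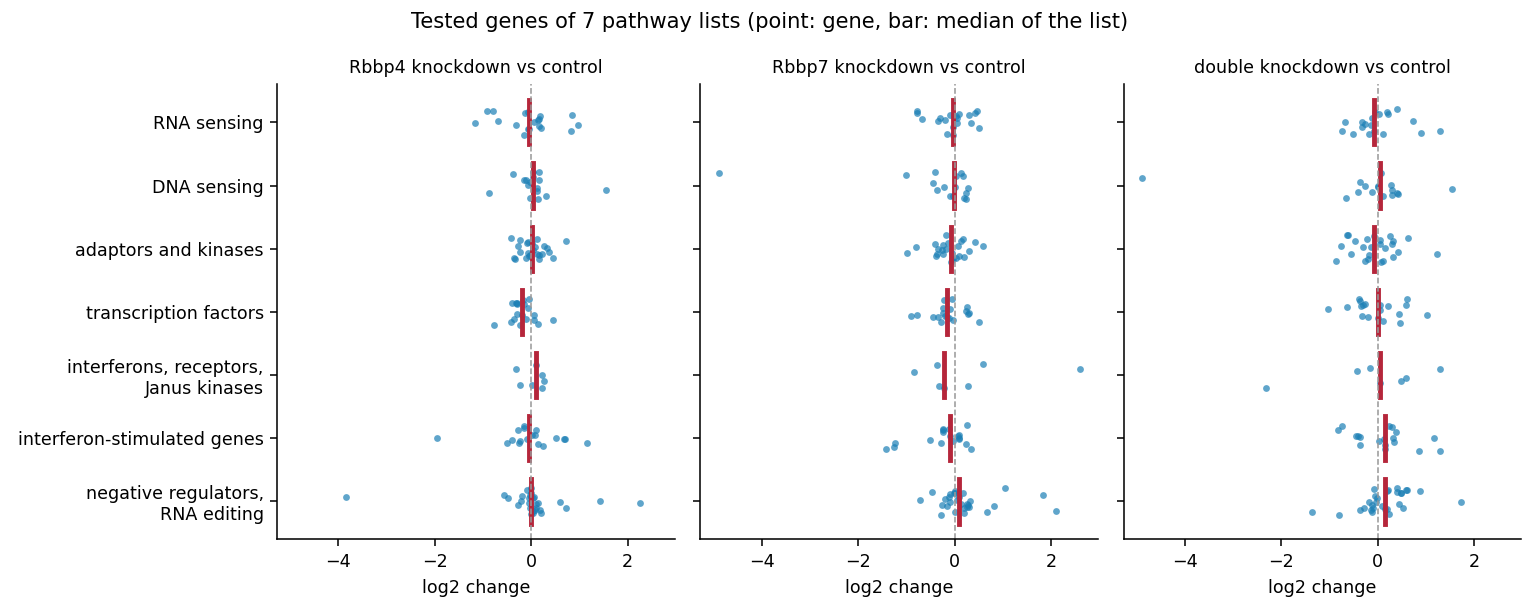
Log2 change (horizontal axis, on the log2(value + 1) scale) of the tested genes of 7 lists in each knockdown against the control, with a point per gene and a bar at the list's median. In the double knockdown the medians lie between −0.077 and 0.15, and the median of all tested genes is −0.00056. The leftmost point of the DNA sensing genes after Rbbp7 siRNA and after both is Ddx41, listed at 0 in all 4 libraries concerned. Ddx41 was also listed at 0 in control replicate 2 and Rbbp4 knockdown replicate 2, so these points rest on control replicate 1.

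Upstream of Irf3, the list of RNA sensing genes had 19 tested of 26, with a median of −0.077 and 2 genes at an unadjusted limma p below 0.05. Its 3 highest genes in the control were general RNA helicases and a stress granule gene, Ddx3x (15381 and 11593), Dhx9 (6625 and 6165) and G3bp1 (4411 and 4532), which serve many other roles. Trim25, a ubiquitin ligase of RIG-I, had 1582 and 1579 in the control and 1226 and 1306 in the double knockdown (−0.32 ± 0.12, limma adjusted p = 0.232). Zcchc3, an RNA-binding cofactor of the sensors, had 285 and 368 against 256 and 203 (−0.50 ± 0.20, limma adjusted p = 0.244), and the helicase gene Dhx33 had −0.33 ± 0.15 (limma adjusted p = 0.290). The values of Trim25 and of Zcchc3 did not overlap between control and double knockdown, and neither passed. Both were named for a small p in that comparison, so the lack of overlap follows in part from the choice. The share of all tested genes without overlap was not counted. Dhx58, which encodes the third RIG-I-like helicase and was named after its values were seen, was also low, with 6.61 and 12.0 in the control and 11 and 48.2 in the double knockdown.

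DNA sensing genes had 16 tested of 22, with a median of 0.044 and 2 genes at an unadjusted limma p below 0.05. The highest in the control were the chromatin protein gene Hmgb1 (5685 and 7081), the DNA repair gene Rad50 (802 and 718) and the RNA polymerase III subunit gene Polr3f (607 and 690.1). Rad50 had −0.36 ± 0.15 (limma adjusted p = 0.266) in the double knockdown, and Polr3b, a second subunit of the same polymerase, 0.28 ± 0.13 (limma adjusted p = 0.328). Trim56, a ubiquitin ligase, had 16.4 and 19.7 in control libraries, 53.5 and 55.9 after Rbbp4 siRNA, 18.3 and 17.9 after Rbbp7 siRNA and 85.4 and 34.0 after both siRNAs. All 4 libraries with Rbbp4 siRNA lay above the other 4 for Trim56, which was named for its small p in the double knockdown against the control. This split follows in part from the choice, and the share of all tested genes with such a split was not counted. The change of Trim56 was 1.55 ± 0.51 in the Rbbp4 knockdown (limma adjusted p = 0.780) and 1.54 ± 0.51 in the double knockdown (limma adjusted p = 0.172). The cytosolic DNA sensor gene Cgas, named after its values were seen, had 7.92 and 15.1 in the control and 20.3 and 11 in the double knockdown. Its partner Tmem173, which encodes STING and was named likewise, had 0 and 4.01 against 0 and 1.24.

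Adaptors and kinases between the sensors and the IRF proteins had 25 tested of 28, with a median of −0.073 and 2 genes at an unadjusted limma p below 0.05. The highest were the 14-3-3 protein gene Ywhae (9789 and 9171), the mitochondrial import receptor gene Tomm70a (3426 and 2846) and the kinase adaptor gene Tab2 (1150 and 929). Ikbkg, which encodes the regulatory subunit NEMO, had 416 and 389 in control libraries, 616 and 493 after Rbbp4 siRNA, 410 and 512 after Rbbp7 siRNA and 647 and 600.1 after both siRNAs (0.63 ± 0.18 for the last, limma adjusted p = 0.119). Fadd, a death domain adaptor, had −0.75 ± 0.27 and Traf5, a signalling adaptor, 1.22 ± 0.55 (limma adjusted p = 0.206 and 0.296).

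Transcription factors and their cofactors had 19 tested of 23, with a median of 0.0061 and 4 genes at an unadjusted limma p below 0.05. The highest were the coactivators Ep300 (2208 and 1874) and Crebbp (1440 and 1089) and the ring finger gene Irf2bpl (1669 and 2241). Irf5, another interferon regulatory factor, had 112 and 120.3 in control libraries, 83.8 and 91.3 after Rbbp4 siRNA, 80.7 and 90.1 after Rbbp7 siRNA and 49.0 and 64.4 after both siRNAs. Irf5 thus had the same order of groups by non-overlapping values as Irf3, with the single knockdowns between control and double knockdown. It was named for its small p in the double knockdown against the control, so this order follows in part from the choice. The share of all tested genes with such an order was not counted. Its change of −1.03 ± 0.28 did not pass (limma adjusted p = 0.115). Atf2, a partner of Jun at the interferon beta enhancer, had 609 and 504 in the control and 352 and 360 in the double knockdown (−0.64 ± 0.17, limma adjusted p = 0.106).

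Jun had 728 and 798 in control libraries, 731 and 634 after Rbbp4 siRNA, 1109 and 1050 after Rbbp7 siRNA and 595 and 590.2 after both siRNAs. The Rbbp7 knockdown libraries were the highest and the double knockdown libraries the lowest, an order whose share among all tested genes was not counted. Jun fell by 0.86 ± 0.14 on the log2 scale in the double against the Rbbp7 knockdown (limma adjusted p = 0.0424). That call ended without any 1 of the 8 libraries, with limma adjusted p of 0.0509 to 0.210, and with only the 4 libraries compared (0.188). It was kept in 7 of 17 alternatives, over which the change lay between −0.90 and −0.82.

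Interferons, their receptors and Janus kinases had 7 tested of 20, with a median of 0.056 and 1 gene at an unadjusted limma p below 0.05. The kinase gene Jak1 had 861 and 798 in control libraries, 702 and 710.3 after Rbbp4 siRNA, 701 and 629 after Rbbp7 siRNA and 608 and 624 after both siRNAs (−0.43 ± 0.13 for the last, limma adjusted p = 0.149). Jak2 had 263 and 226 in the control, 134 and 138 after Rbbp7 siRNA and 256 and 252 after both (−0.84 ± 0.20 in the Rbbp7 knockdown, limma adjusted p = 0.235). The receptor gene Ifnar1 had 196 and 207 in the control and 155 and 209 in the double knockdown, which overlap. The cytokine receptor subunit Il10rb (1.29 ± 0.87) and the interferon gamma receptor subunit Ifngr2 (0.48 ± 0.35) had limma adjusted p of 0.486 and 0.525. Ifnar2, the other subunit of the type I receptor, named after its values were seen, had 3.77 and 2.99 in the control and 1.03 and 4.30 in the double knockdown.

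Downstream, the list of interferon-stimulated genes had 18 tested of 53, with 41 in the table. Of those 41, 16 were at or under 10 in every library and 9 were listed at 0 in at least 4 libraries, and the median control level was 6.47. Isg15, a ubiquitin-like antiviral protein gene named after its values were seen, was listed at 0 in 6 of the 8 libraries and did not exceed 2.47. Rsad2 and Mx1, named likewise, reached at most 5.28 and 4.75. The 18 tested genes had a median of 0.15 with 12 positive, and 3 had an unadjusted limma p below 0.05. Parp12 had 56.8 and 66.1 in the control and 157 and 145 in the double knockdown (1.29 ± 0.28, limma adjusted p = 0.0698). B2m, the light chain of class I molecules, had 166 and 151 in the control, 85.9 and 50.9 after Rbbp7 siRNA and 108 and 82.3 after both (−0.74 ± 0.31 for the last, limma adjusted p = 0.261). The peptide transporter gene Tap1 (677 and 377 in the control), the nuclear body gene Pml (556 and 473) and the histone chaperone gene Daxx (380.0 and 407) were the highest of the list and had limma adjusted p of 0.582, 0.424 and 0.305.

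Lgals9, which encodes a galectin, had 158 and 167 in control libraries, 150.4 and 178 after Rbbp4 siRNA, 62.1 and 58.4 after Rbbp7 siRNA and 505 and 266 after both siRNAs. The Rbbp7 knockdown libraries were the lowest and the double knockdown libraries the highest, an order whose share among all tested genes was not counted. The summed blood and immune markers, chiefly Cd68, were 216 to 403 in control libraries and 219.7 to 291 after Rbbp4 siRNA. They were 141 to 271 after Rbbp7 siRNA and 365 to 366 after both, and their part in the Lgals9 values was not tested. Lgals9 rose by 2.59 ± 0.30 from the Rbbp7 to the double knockdown (limma adjusted p = 0.0167), while its change against the control was −1.42 ± 0.30 in the Rbbp7 knockdown (limma adjusted p = 0.201) and 1.17 ± 0.30 in the double knockdown (limma adjusted p = 0.102). The call ended without Rbbp7 knockdown replicate 1 (0.0850) or 2 (0.117), without double knockdown replicate 1 (0.0553), and with only the 4 libraries compared (0.188), all limma adjusted p, and was kept in 13 of 17 alternatives.

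Negative regulators and RNA editing genes had 29 tested of 31, with a median of 0.15 and 3 genes at an unadjusted limma p below 0.05. The highest were the autophagy receptor gene Tax1bp1 (3620 and 3181), the RNA-binding protein gene Pcbp2 (2617 and 2594) and the deubiquitinase gene Otud5 (2053 and 1982). Rbck1, a subunit of a ubiquitin ligase, had 612 and 589 in control libraries, 621 and 672 after Rbbp4 siRNA, 770.2 and 739.9 after Rbbp7 siRNA and 836 and 900.2 after both siRNAs (0.53 ± 0.13 for the last, limma adjusted p = 0.0938). Its groups lay in that order with no overlap, but Rbck1 was named for its small p in the double knockdown against the control. This order follows in part from the choice, and the share of all tested genes with such an order was not counted. Rbck1 passed the test in none of the 7 comparisons. Samhd1, a nucleotide hydrolase, had 0.88 ± 0.34 and Tax1bp1 −0.28 ± 0.11 (limma adjusted p = 0.233 and 0.228).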

How the data were processed

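Polyadenylated RNA of 8 libraries in 4 groups was analysed. The submitters' processing notes name Trimmomatic, HISAT2, featureCounts and DESeq2 with GRCm38 as build. Their versions, the annotation and any strand setting are not stated in the sources used here. Each deposited value is a signal, the abundance of an Ensembl gene as normalized by the authors with DESeq2, per the name of the table. Whole reads could not be recovered, so depth is unknown and no count model was fitted. The title of the double knockdown and its column name differ by 1 letter. Of 19058 identifiers 18942 matched a symbol, and 0 columns came from other samples.

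Values were analysed as log2(value + 1), which understates changes of low genes. Genes averaging 10 or more in the 8 libraries, 12565 in number, were fitted with limma 3.58.1 in R 4.3.3 (1 mean per group, all libraries, intensity trend, 4 residual and 5.18 prior degrees of freedom). All tests are two-sided, Benjamini-Hochberg adjustment was made in each of 7 comparisons, and genes below 0.05 were called. The fit was tested on simulated data. Coordinates and exonic lengths come from GENCODE M21 (GRCm38), and promoters from RefSeq GRCm38.p6, where 9 of 9 genes matched.

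The 9 genes, the 7 lists and the marker lists were chosen with earlier results of these data known. Named by rule were the 9 genes, both siRNA targets, the 3 nearest genes on each side of Irf3, the 5 genes most correlated with it and, of each list, called genes, the 3 highest in the control and the 3 with the smallest p in the double knockdown. Of the genes so named, 1 is not reported here. Alternatives were 2 other pseudocounts, 2 other filters, TMM scaling (own code, not edgeR's) and quantile normalization, library weights, a replicate block, only the groups compared, and leaving out each library.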

Additional observations from a re-analysis of the deposited data

How the results depend on the processing

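Leaving out 1 library, each group having 2, set most limits: the lone library of its group was then assumed to vary like the others. The call of Irf3 in the double knockdown against the control, 1 member of the set, became 0 under no filter, only the groups compared, library weights, the replicate block, and without any 1 library (range 0 to 0), with a change of −2.12 to −1.87 over 17 alternatives. In the other 6 comparisons 0 of the tested members were called under any alternative run. Changes that turned sign did so only when a library was left out. For Mavs the range was −0.33 to 0.28 in the double knockdown against the control, −0.35 to 0.25 against the Rbbp4 and −0.19 to 0.41 against the Rbbp7 knockdown, −0.11 to 0.15 in the Rbbp4 and −0.30 to 0.024 in the Rbbp7 knockdown, −0.0034 to 0.32 between these, and −0.21 to 0.39 in the interaction. For Tbk1 it was −0.66 to 0.14, −0.57 to 0.23 and −0.39 to 0.41 in the double knockdown against the control, Rbbp4 and Rbbp7 knockdown, and −0.30 to 0.51 in the interaction. Stat2 ranged from −0.052 to 0.43 in the Rbbp7 knockdown and −0.27 to 0.21 in the interaction, and Irf3 from −0.59 to 0.29 between the single knockdowns. The cause was not tested.

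Over all tested genes the count of calls in the double knockdown against the control, 144, was 2 with only the groups compared and 27 to 99 without 1 library, and at most 196 under any setting. Against the Rbbp4 knockdown it was 2 (2 to 13) and against the Rbbp7 knockdown 45 (1 to 78, and 5 to 42 without 1 library). It was 3 (2 to 36) in the Rbbp4 and 3 (1 to 38) in the Rbbp7 knockdown, 10 (6 to 65) between them and 1 (1 to 21) in the interaction. Over all tested genes, same-numbered libraries had correlations of deviations of −0.022 to 0.051. A correlation over all tested genes cannot tell whether replicate numbers mark a batch for some of them, and this was not tested. With the replicate block 113 genes and 0 of the members were called in the double knockdown against the control, and 0 members in the 6 other comparisons. The call of Jun in the double against the Rbbp7 knockdown was also lost with the block (limma adjusted p = 0.0684).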

Other observations

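Ddx41, a helicase gene on the list of DNA sensing genes, was listed at 882 in control replicate 1, 260.1 in Rbbp4 knockdown replicate 1 and 0 in the 6 other libraries. Ifng, the interferon gamma gene, had 27.8 in control replicate 1, 18.7 in Rbbp4 knockdown replicate 1 and 16.8 in double knockdown replicate 1, and 1.0 to 4.76 in the 5 other libraries. Tyk2, a Janus kinase gene, was listed at 0 in control replicate 1, Rbbp4 knockdown replicate 2 and both double knockdown libraries, and at 17.4 to 49.0 in the 4 other libraries. These 3 genes were named after their values were seen, and the cause of the values was not tested.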
